A study of Mus musculus with 4 samples.

Results

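To describe the activity-regulated genes of the injured hippocampus, 10 genes were taken by symbol from a table of 22609 gene symbols: Arc, Egr1, Egr2, Egr3, Egr4, Npas4, Nr4a1, Nr4a2, Nr4a3 and Ier2. They were compared in 4 RNA-Seq libraries of total hippocampal RNA, 2 of FLOX+GCI mice and 2 of FBN-ARO-KO+GCI mice. All were ovariectomized females of 3 to 5 months, and in all of them global cerebral ischemia (GCI) had been induced by 20 min of occlusion of both common carotid arteries, and the tissue was taken after 24 h of reperfusion. The FBN-ARO-KO genotype is a Cre/LoxP deletion of Cyp19a1, the gene for aromatase, which converts androgens to estrogens. Cre is driven by the CaMKIIα promoter, so the deletion is meant for excitatory neurons of the forebrain, and other cells of the hippocampus keep the gene. FLOX mice are the floxed controls. No sham library was used here, so each value describes the ischemic hippocampus and no value is a change caused by GCI. The question of the comparison was which hippocampal transcripts depend on neuron-derived estrogen after ischemia.

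Immediate early genes are transcribed within minutes of synaptic activity, calcium entry or growth factor signaling, without the need for new protein, and their RNAs are mostly short-lived. CREB, which binds the cAMP response element, SRF, which binds the CArG box, and MEF2 factors start their transcription. In the hippocampus they respond to learning, seizures and ischemia. The 10 genes cover an effector at the synapse (Arc), zinc finger factors (Egr1 to Egr4), a neuronal bHLH-PAS factor (Npas4), orphan nuclear receptors (Nr4a1 to Nr4a3) and a nuclear regulator of transcription (Ier2).

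The start sites of these genes are where the factors above bind, so the upstream sequences of 5 members are shown, each the 250 bases before an annotated RefSeq transcription start in GRCm38.p6, 5′ to 3′ on the gene's strand. Capitals mark TGACG, the core of the cAMP response element, or its reverse complement CGTCA, and in addition the CArG box of Egr2 and a TATAAA run on the opposite strand of Nr4a2 (TTTATA as printed). The windows are chr19:4989972-4990221 on the minus strand for Npas4, chr6:85513590-85513839 on the minus strand for Egr4, chr10:67537619-67537868 on the plus strand for Egr2 (one of 5 starts), chr2:57124004-57124253 on the minus strand for Nr4a2 and chr4:48045055-48045304 on the plus strand for Nr4a3.
Npas4: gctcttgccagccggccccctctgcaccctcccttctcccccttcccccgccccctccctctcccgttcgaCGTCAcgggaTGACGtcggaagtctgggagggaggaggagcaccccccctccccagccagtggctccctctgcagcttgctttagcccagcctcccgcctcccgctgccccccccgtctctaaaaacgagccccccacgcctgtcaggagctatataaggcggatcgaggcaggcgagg
Egr4: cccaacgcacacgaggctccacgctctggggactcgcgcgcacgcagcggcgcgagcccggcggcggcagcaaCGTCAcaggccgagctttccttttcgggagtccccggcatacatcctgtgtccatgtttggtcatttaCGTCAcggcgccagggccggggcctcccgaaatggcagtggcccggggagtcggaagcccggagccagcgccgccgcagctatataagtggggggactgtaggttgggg
Egr2: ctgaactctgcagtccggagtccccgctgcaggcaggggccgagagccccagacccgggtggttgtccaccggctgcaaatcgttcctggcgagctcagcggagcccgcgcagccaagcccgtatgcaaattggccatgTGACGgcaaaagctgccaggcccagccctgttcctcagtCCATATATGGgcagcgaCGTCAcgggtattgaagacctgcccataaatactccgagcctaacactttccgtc
Nr4a2: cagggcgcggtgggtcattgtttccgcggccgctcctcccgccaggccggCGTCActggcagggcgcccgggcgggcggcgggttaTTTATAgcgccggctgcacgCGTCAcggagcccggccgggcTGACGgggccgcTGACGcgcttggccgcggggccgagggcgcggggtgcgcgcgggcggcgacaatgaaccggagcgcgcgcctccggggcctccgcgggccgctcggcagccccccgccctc
Nr4a3: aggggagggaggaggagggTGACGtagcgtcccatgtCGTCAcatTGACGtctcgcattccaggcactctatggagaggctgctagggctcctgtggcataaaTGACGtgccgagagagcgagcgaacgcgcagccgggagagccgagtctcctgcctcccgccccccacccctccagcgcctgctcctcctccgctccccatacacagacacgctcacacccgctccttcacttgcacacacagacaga

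RefSeq windows were at hand for 6 of the 10 members, the 5 above and Nr4a1. Each search covered 250 bases before and 50 after the start, on both strands, and a match is only a run of letters. TGACG was found in 6 of the 6 members with a window, against 23.0% of 27025 genes with at least 1 window of this length. A gene was counted when any of its windows held the motif, and of the 5 windows of Egr2, 3 held TGACG. Nr4a1, Nr4a2 and Nr4a3 each held 4 copies in the 250 bases upstream, and Npas4 and Egr4 each held 2. In Npas4 the copies start 179 and 169 bases before the transcription start, on opposite strands. The full palindrome TGACGTCA, which contains TGACG, was in 0 of the 6 and in 2.03% of all genes. A CArG box was found in Egr2, against 1.81% of all genes, and starts 72 bases before the start shown. GCGGGGGCG, a form of the EGR binding site, was found in Nr4a1, against 3.31% of all genes, while the form GCGTGGGCG was in 0 of the 6 and in 0.707% of genes. AAAGGTCA, the element bound by NR4A receptors, was in 0 of the 6 and in 1.70% of genes. TATAAA was found in Nr4a2, on the opposite strand and starting 164 bases before the start, against 15.7% of genes. Since all 6 members with a window held TGACG, its presence cannot be compared between members lower in FBN-ARO-KO+GCI (Npas4 and Egr4) and higher (Nr4a2 and Nr4a3). Egr3 and Ier2, which also lay lower, had no window.

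Counts on genes totaled between 24333396 and 33076795 per library, and levels are given as CPM, the usual count scaled to library size, here with TMM factors, which remove differences in composition between libraries. At this depth 3 counts, used as the floor, were between 0.0907 and 0.123 CPM, which covers counting error only. The labels do not say whether a group's replicates are separate mice, so the p-values measure only the spread between these libraries, which may be technical. The targeted gene could not check the labels, since Cyp19a1 was read 4 times and 1 time in the FLOX+GCI libraries and 2 times in each FBN-ARO-KO+GCI library. All 10 members passed the filter on low counts, with between 76 and 7388 counts per library. Their summed level was 693 and 565 CPM in FLOX+GCI and 602 and 544 CPM in FBN-ARO-KO+GCI. In these bulk samples, fewer cells of a type and less RNA per cell cannot be told apart.

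Levels were compared between genes as CPM per kb of the longest coding transcript, as the mean ± SD over the 4 libraries. Arc was the most abundant member at 71.0 ± 13.0 CPM per kb, above 93.5% of 13869 genes with an annotated length. Egr1 followed at 47.9 ± 6.06 CPM per kb, and the lowest Arc library (55.4) lay just below the highest Egr1 library (55.5). Nr4a1 came next at 31.5 ± 4.65 CPM per kb, with no library overlapping those of Egr1. Egr3, at 25.6 ± 3.09 CPM per kb, overlapped Nr4a1, and its annotated transcript of 1416 bases has no 5′ UTR, so its level per kb may be overstated. The GC content given below for Egr3 and its value corrected for GC content and length rest on the same transcript. Nr4a2 had 17.1 ± 2.37 CPM per kb, below every Egr3 library. The other 5 members formed a group of lower levels, with Nr4a3 at 5.20 ± 0.520, Egr4 at 4.59 ± 1.33, Ier2 at 3.86 ± 1.54, Npas4 at 3.23 ± 1.56 and Egr2 at 1.47 ± 0.481 CPM per kb. Within that group each gene overlapped the next in order. Egr2, the least abundant, exceeded 18.8% of genes.

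**Figure D1:**
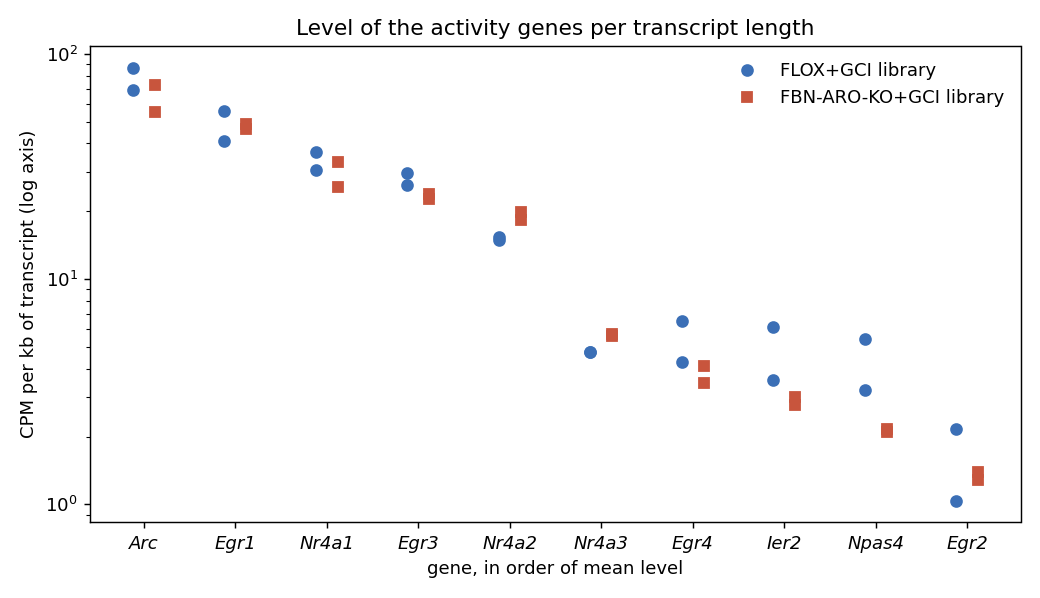
Level of each activity gene in CPM per kb of transcript (log axis), one point per library, with FLOX+GCI as blue circles and FBN-ARO-KO+GCI as red squares. The genes run from Arc, at a mean of 71.0, to Egr2, at 1.47, and Nr4a2 separates from Nr4a3 with no overlap between libraries.

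Across the 10 genes, the comparison of FBN-ARO-KO+GCI with FLOX+GCI gave both directions. Npas4 and Ier2 had the lowest levels relative to FLOX+GCI, at 0.492 and 0.595 of it, whereas Nr4a2 and Nr4a3 were 1.26-fold and 1.19-fold of it. The fitted log2 fold change was negative for 8 members and positive for 2, with a median of -0.26, beside -0.01 over the 14527 genes tested, of which 7458 were negative and 7069 positive. With the quasi-likelihood test in edgeR and Benjamini-Hochberg adjustment, no member passed an adjusted p of 0.05, and 2 genes of 14527, or 0.0138%, passed. The likelihood ratio test in edgeR called 1, Npas4, beside 294 of all genes, or 2.02%. DESeq2 gave an adjusted p to 5 of the 10 members and called 0 of these. It set no adjusted p for Egr2, Egr4, Npas4, Nr4a3 and Ier2, which are among the genes of lower counts. The unadjusted p of these 5 in DESeq2 ran from 1.26e-04 for Npas4 to 0.506 for Egr2. At an unadjusted p below 0.05 in the quasi-likelihood test, 4 members lay lower (Npas4, Ier2, Egr3 and Egr4) and 2 higher (Nr4a2 and Nr4a3). The same threshold was met by 7.82% of all genes in the lower direction and by 8.72% in the higher. These 6 were also the members in which the libraries of one genotype lay entirely on one side of the other, 4 lower and 2 higher. Over all genes this was so for 25.8% in the lower and 25.9% in the higher direction. The remaining 4, Arc, Egr1, Egr2 and Nr4a1, overlapped between genotypes.

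**Figure D2:**
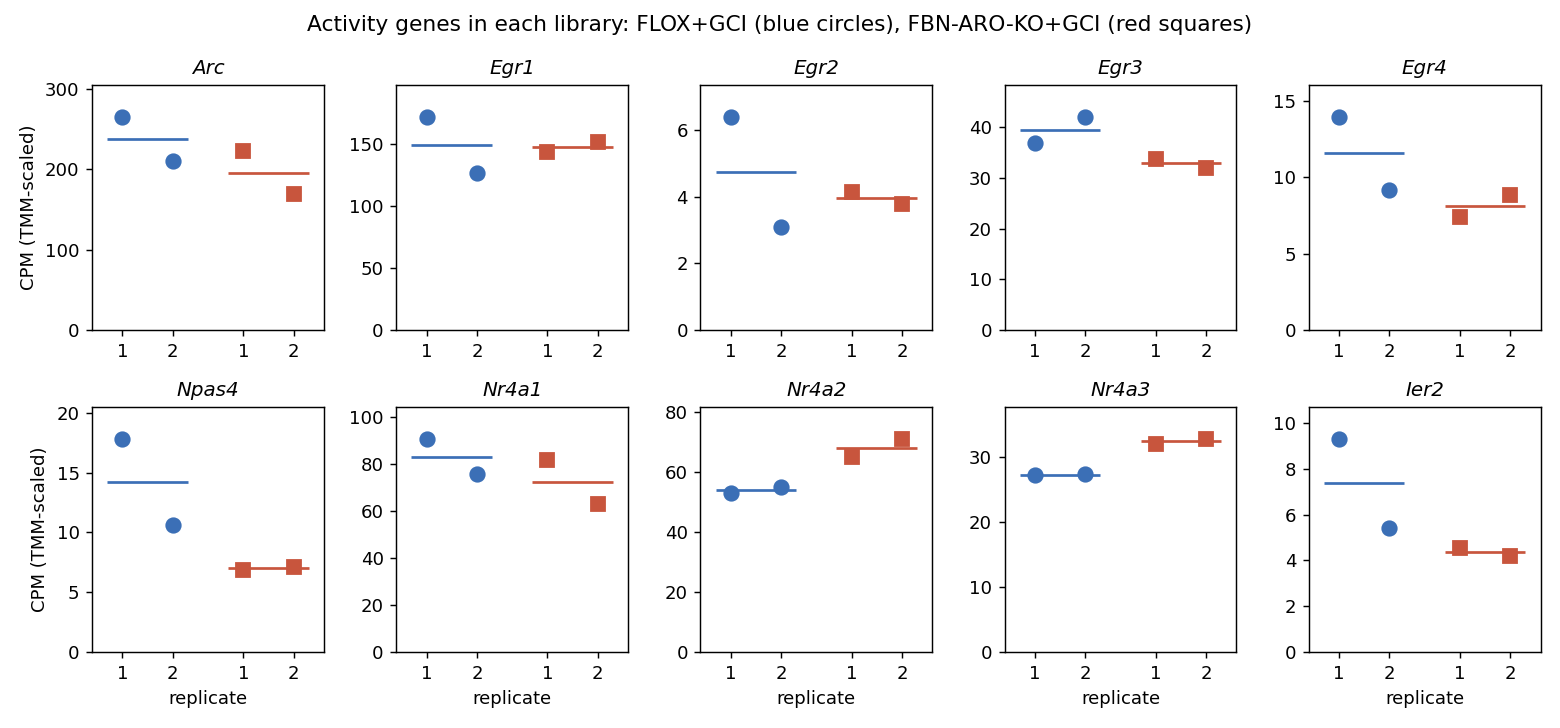
TMM-scaled CPM of each activity gene (y axis, starting at 0, one scale per gene) in replicates 1 and 2 of FLOX+GCI (blue circles) and FBN-ARO-KO+GCI (red squares), with lines at the group means. Npas4 lies at 17.8 and 10.6 CPM against 6.88 and 7.10, and Nr4a2 and Nr4a3 are the members in which both FBN-ARO-KO+GCI libraries lie above both FLOX+GCI libraries.

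Arc (chr15:74499513-74503000 in mm9, minus strand) encodes a dendritic protein that promotes removal of AMPA receptors from synapses. It had 265 and 210 CPM in FLOX+GCI replicates 1 and 2 and 223 and 169 CPM in FBN-ARO-KO+GCI replicates 1 and 2. The FBN-ARO-KO+GCI values lay around the lower FLOX+GCI value, and in each genotype replicate 2 was the lower library. The means were 238 ± 39.1 and 196 ± 37.9 CPM (SD, n = 2 each). The log2 fold change was -0.28 (SE 0.15, 95% interval -0.63 to 0.08), with an adjusted p of 0.386 (edgeR quasi-likelihood, Benjamini-Hochberg). Leaving out 1 library moved it between -0.49 and -0.09.

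Among the Egr zinc finger factors, which bind GC-rich sites, Egr1 was the most abundant. It is located on chromosome 18 and is overlapped on the other strand by Gm17507, which has no row in the count table, and whether counting used strand is not given in the sources used here. Egr1 had 172 and 127 CPM in FLOX+GCI, against 144 and 152 CPM in FBN-ARO-KO+GCI, so that both FBN-ARO-KO+GCI values fell between the FLOX+GCI values. The fit gave a log2 fold change of -0.02 (SE 0.13, interval -0.33 to 0.30). Egr2 (chr10:66998223-67004936, plus strand), known for its part in myelination and in late phases of plasticity, had the same order of libraries at its ends, with 6.39 and 3.08 CPM in FLOX+GCI around 4.13 and 3.79 CPM in FBN-ARO-KO+GCI. Its counts were 160, 76, 137 and 111 in that order, and the log2 fold change of -0.26 had an interval from -1.02 to 0.51.

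Egr3 (chr14:70477252-70479964, plus strand), a factor that shares targets with Egr1, had 36.9 and 42.0 CPM in FLOX+GCI and 33.8 and 32.1 CPM in FBN-ARO-KO+GCI. Both FBN-ARO-KO+GCI libraries were thus below both FLOX+GCI libraries, by a log2 fold change of -0.26 (SE 0.10, interval -0.50 to -0.02). The adjusted p was 0.274 (edgeR quasi-likelihood, Benjamini-Hochberg). Egr4 (chr6:85461125-85463583, minus strand) had 13.9 and 9.17 CPM in FLOX+GCI and 7.39 and 8.81 CPM in FBN-ARO-KO+GCI. The gap between the nearest libraries of the genotypes was small beside the distance between the FLOX+GCI replicates. The log2 fold change of Egr4 was -0.51 (SE 0.22), with an adjusted p of 0.298 (edgeR quasi-likelihood, Benjamini-Hochberg). It ran from -0.18, without FLOX+GCI replicate 1, to -0.79, without FLOX+GCI replicate 2.

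Npas4 (chr19:4984355-4989971, minus strand), a factor induced by calcium entry in neurons that controls inhibitory synapses onto excitatory cells, showed the lowest log2 fold change of the 10. FLOX+GCI replicates held 446 and 261 counts, FBN-ARO-KO+GCI replicates 228 and 208, or 17.8 and 10.6 against 6.88 and 7.10 CPM. The FBN-ARO-KO+GCI libraries were close to each other and below both FLOX+GCI libraries, which were themselves far apart. The means were 14.2 ± 5.10 and 6.99 ± 0.16 CPM (SD, n = 2 each). The log2 fold change was -1.02 (SE 0.24, interval -1.58 to -0.46), with an adjusted p of 0.238 (edgeR quasi-likelihood, Benjamini-Hochberg), and Npas4 was gene number 179 of 14527 in the order of p. Without FLOX+GCI replicate 2 the adjusted p in the same test was 0.00101 and the log2 fold change -1.35. FLOX+GCI then had 1 library, its highest, so the spread came from the FBN-ARO-KO+GCI pair and that library was assumed to vary alike. Npas4 was not called when any other library was left out, and across the fits that left out 1 library the log2 fold change ran from -1.35 to -0.60. In edgeR's likelihood ratio test, which called 2.02% of all genes, the adjusted p was 0.0168.

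Ier2 (chr8:87185230-87186751, minus strand), a short single-exon gene for a nuclear protein induced by growth factors, had the next lowest fold change. FLOX+GCI replicates held 233 and 134 counts and FBN-ARO-KO+GCI replicates 151 and 123, which correspond to 9.30 and 5.44 against 4.56 and 4.20 CPM. FLOX+GCI replicate 2 lay nearer to the FBN-ARO-KO+GCI libraries than to replicate 1 of its own group. Ier2 had a fitted log2 fold change of -0.75 (SE 0.26, interval -1.37 to -0.13), with an adjusted p of 0.255 (edgeR quasi-likelihood, Benjamini-Hochberg). When FLOX+GCI replicate 2 was left out, Ier2 had an adjusted p of 0.0249 in the same test and a log2 fold change of -1.09, again with 1 FLOX+GCI library and a spread taken from the FBN-ARO-KO+GCI pair alone. Ier2 was not called when any other library was left out, and across the fits that left out 1 library it ran from -1.09 to -0.31.

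The Nr4a genes encode orphan nuclear receptors (Nur77, Nurr1 and Nor1), which act as transcription factors without a classical ligand and have been linked to memory consolidation and neuronal survival. The 3 members did not share a direction. Nr4a1 (chr15:101097277-101105223, plus strand) overlapped between genotypes, with 90.7 and 75.8 CPM in FLOX+GCI and 81.7 and 63.3 CPM in FBN-ARO-KO+GCI. The fitted difference was -0.20 on the log2 scale (SE 0.14, interval -0.52 to 0.13), and it lay between -0.40 and -0.03 when 1 library was left out.

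Nr4a2 (chr2:56959241-56976414, minus strand) had 53.0 and 55.01 CPM in FLOX+GCI and 65.1 and 70.9 CPM in FBN-ARO-KO+GCI. The FLOX+GCI replicates were nearly equal, and both FBN-ARO-KO+GCI libraries lay above them. The means of Nr4a2 were 54.0 ± 1.39 and 68.0 ± 4.13 CPM (SD, n = 2 each), with a log2 fold change of 0.33 (SE 0.08, interval 0.14 to 0.53). The adjusted p of this difference was 0.238 in edgeR's quasi-likelihood test and 0.064 in DESeq2, both with Benjamini-Hochberg adjustment. Nr4a3 (chr4:48058025-48099319, plus strand) had 27.1 and 27.3 CPM in FLOX+GCI and 31.9 and 32.7 CPM in FBN-ARO-KO+GCI. It showed the smallest spread between replicates among the members, and its groups did not overlap. The log2 fold change of Nr4a3 was 0.25 (SE 0.09, interval 0.03 to 0.46), with an adjusted p of 0.264 (edgeR quasi-likelihood, Benjamini-Hochberg). Leaving out 1 library at a time gave log2 fold changes of 0.27 to 0.39 for Nr4a2 and of 0.23 to 0.26 for Nr4a3. The direction held in those 4 fits for both genes.

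The spread of the members within FLOX+GCI exceeded the difference between genotypes for 6 of them. FLOX+GCI replicate 1 held the highest value of 7 members, Arc, Egr1, Egr2, Egr4, Npas4, Nr4a1 and Ier2, and these 7 were lower in replicate 2 of that group. The log2 ratio of replicate 2 to replicate 1 in FLOX+GCI was -1.05 for Egr2, -0.77 for Ier2, -0.75 for Npas4 and -0.60 for Egr4, and 0.19 for Egr3, 0.05 for Nr4a2 and 0.01 for Nr4a3. Its median was -0.39 over the members and 0.00 over all genes, of which 49.6% were lower in replicate 2. In FBN-ARO-KO+GCI 5 members were lower in replicate 2, and the median log2 ratio was -0.02 over the members and 0.01 over all genes. The 6 members whose FLOX+GCI replicates differed by more than the genotype means did, on the log2 scale, were Arc, Egr1, Egr2, Egr4, Nr4a1 and Ier2.

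The members also differed in base composition, and across all genes the genotype difference followed it. Over 13869 genes with an annotated transcript, the log2 fold change ranked with GC content at a Spearman's rho of -0.55, and over the 10 members at -0.71. These are correlations across genes that share the same 4 libraries. GC content was 47.9% for Nr4a2 and 48.4% for Nr4a3, the lowest of the members, and 68.4% for Egr4, 62.1% for Egr3 and 60.9% for Ier2, the highest. The members' median was 56.9%, against 50.6% over all genes. The same trend appeared between libraries of one genotype, with a rho of -0.48 for FBN-ARO-KO+GCI replicate 2 over replicate 1 and of 0.10 in FLOX+GCI. Among 747 genes of at least 60% GC, to which Egr3, Egr4 and Ier2 belong, the median log2 fold change was -0.25, and 67.6% of genes were lower in FBN-ARO-KO+GCI with no overlap. Egr3 lay in the middle of these genes, with 47.8% of them at a lower log2 fold change, against 15.9% for Egr4 and 7.50% for Ier2. Among 2937 genes between 55% and 60% GC, with a median of -0.14, 1.74% had a lower log2 fold change than Npas4. For Arc and Nr4a1, of the same range, the share was 24.8% and 38.3%. Among 3545 genes between 45% and 50% GC, with a median of 0.06, 5.84% had a higher log2 fold change than Nr4a2 and 11.4% than Nr4a3. Genes were grouped here by GC content alone and not by level, in which Npas4 exceeded 29.7% and Ier2 32.7% of genes. What part base composition has in the members' differences was not tested beyond these descriptions and the corrected fit.

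**Figure D3:**
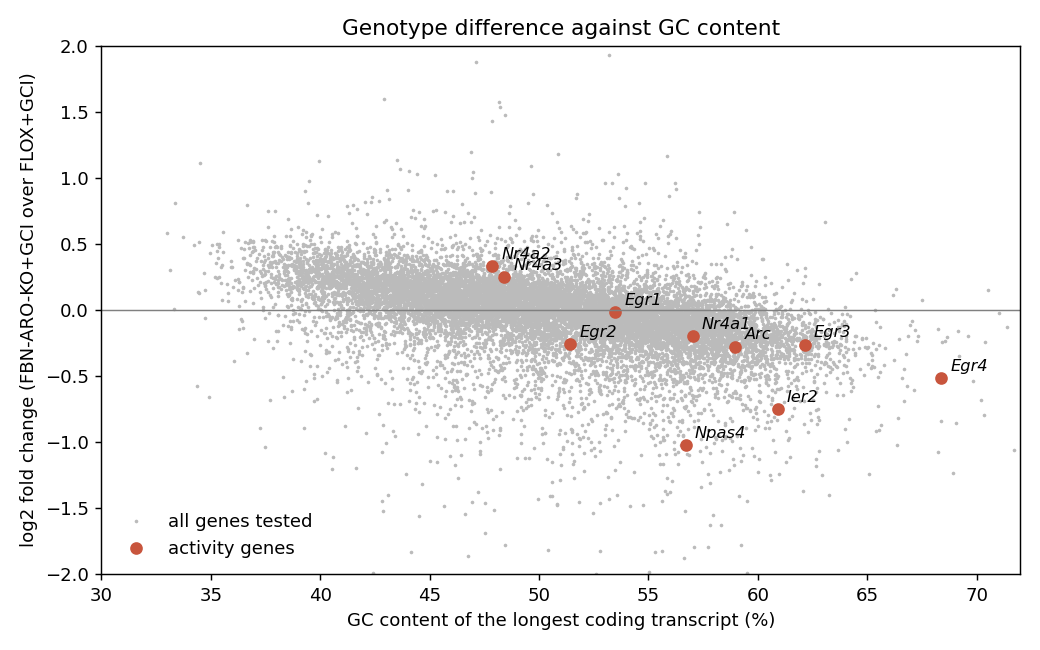
Log2 fold change of FBN-ARO-KO+GCI over FLOX+GCI (y axis) against the GC content of the longest coding transcript in percent (x axis), with genes tested in grey and the activity genes in red. The cloud falls from left to right (Spearman's rho -0.55 over 13869 genes, 15 of them outside the plotted range), with Nr4a2 and Nr4a3 at its left, Egr4 at its right and Npas4 at its lower edge.

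When GC content and transcript length were corrected for in each library, the median log2 fold change of the members was -0.05, beside 0.03 over all genes. Npas4 was at -0.86 (SE 0.24, interval -1.44 to -0.29), with corrected values of 16.9 and 10.02 CPM in FLOX+GCI and 6.95 and 7.84 CPM in FBN-ARO-KO+GCI. Its groups did not overlap there either, and the adjusted p was 0.349 (edgeR quasi-likelihood, Benjamini-Hochberg). Ier2 had a corrected log2 fold change of -0.46 (interval -1.05 to 0.14), with 8.31 and 4.96 CPM against 4.74 and 4.95 CPM, so that FLOX+GCI replicate 2 and FBN-ARO-KO+GCI replicate 2 were nearly equal. Nr4a2 was at 0.30 (interval 0.13 to 0.47) and Nr4a3 0.19 (interval 0.00 to 0.38), each with both FBN-ARO-KO+GCI libraries above both FLOX+GCI libraries. Their corrected values were 53.2 and 56.0 against 64.9 and 69.7 CPM for Nr4a2, and 27.6 and 27.9 against 31.7 and 31.7 CPM for Nr4a3. Egr3 turned to 0.06 (interval from -0.18 to 0.30) and Egr1 to 0.07, and Egr4 moved to -0.08, Arc to -0.07, Nr4a1 to -0.03 and Egr2 to -0.22. After correction 2 members lay lower without overlap and 2 higher, beside 16.0% and 28.3% of all genes. At an unadjusted p below 0.05 there were 1 lower (Npas4) and 2 higher (Nr4a2 and Nr4a3), beside 3.51% and 7.90% of all genes.

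**Figure D4:**
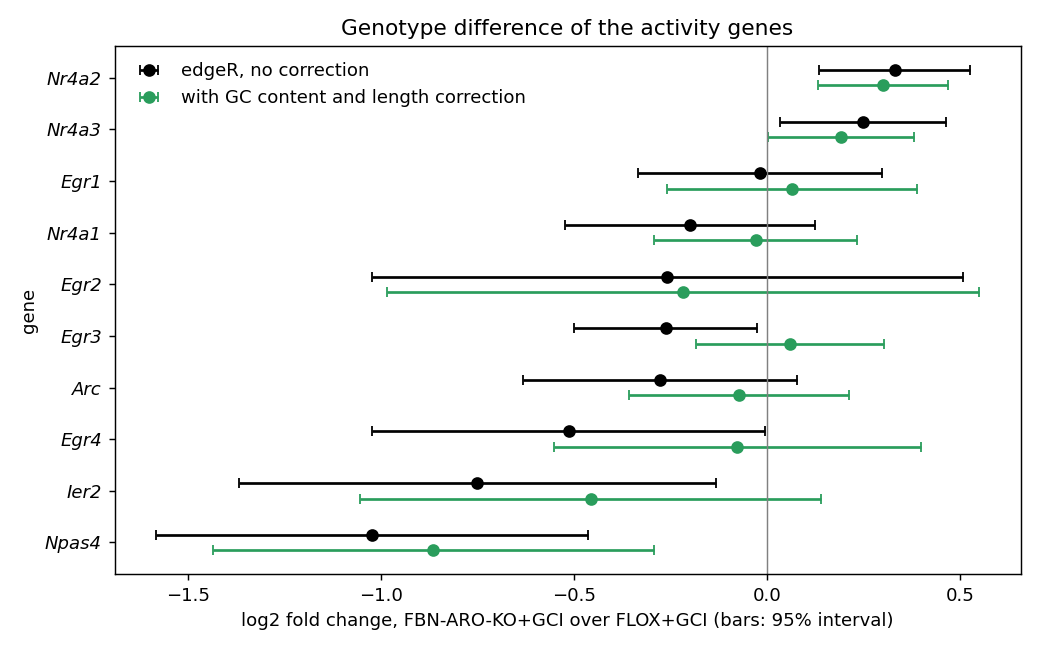
Log2 fold change of each activity gene, FBN-ARO-KO+GCI over FLOX+GCI (x axis), with its 95% interval, without (black) and with (green) correction for GC content and transcript length. The corrected intervals of Npas4, from -1.44 to -0.29, and of Nr4a2, from 0.13 to 0.47, lie on one side of 0, that of Nr4a3 starts at 0.00, and those of the other 7 members include 0.

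Other immediate early genes were examined as 2 lists. Of 19 further early genes, 16 had a negative and 3 a positive log2 fold change, with a median of -0.48. Without overlap, 9 of the 19 lay lower and 2 higher, beside 25.8% and 25.9% of all genes. The median was -0.20 without FLOX+GCI replicate 2 and -0.65 without FBN-ARO-KO+GCI replicate 1. At an unadjusted p below 0.05, 8 lay lower and 2 higher, beside 7.82% and 8.72% of all genes, and none passed the adjusted threshold. Cyr61, which encodes a secreted matrix protein, had 8.42 and 7.38 CPM in FLOX+GCI and 3.20 and 2.53 CPM in FBN-ARO-KO+GCI, with a log2 fold change of -1.46 and an adjusted p of 0.174 (edgeR quasi-likelihood, Benjamini-Hochberg). Gadd45g, a stress-induced gene, had 12.2 and 19.1 CPM against 9.20 and 7.44 CPM. Here FLOX+GCI replicate 2 was the highest library, unlike in Npas4 and Ier2. Klf2, a zinc finger factor prominent in endothelium, had 14.1 and 7.79 CPM against 8.57 and 3.93 CPM and overlapped between genotypes. Nfil3 and Fbxo33 were the 2 that lay higher, at log2 fold changes of 0.40 and 0.22. Once corrected for GC content and length, the list's median was -0.34. At an unadjusted p below 0.05, 6 then lay lower and 3 higher, beside 3.51% and 7.90% of all genes.

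Of the 7 AP-1 factors, Fosl1 was below the filter. Of the other 6, Fos, Jun, Junb and Jund lay lower in FBN-ARO-KO+GCI without overlap and Fosb and Fosl2 higher. Over all genes this was so for 25.8% in the lower and 25.9% in the higher direction. The median log2 fold change of the 6 was -0.36. Junb had 57.6 and 44.6 CPM in FLOX+GCI and 31.8 and 28.5 CPM in the other genotype, and a log2 fold change of -0.76. Fos, the partner of the Jun proteins in AP-1, had 28.6 and 21.5 CPM against 16.9 and 13.7 CPM and a log2 fold change of -0.71. DESeq2 gave an adjusted p to 4 of the 6, not to Fos and Fosb, and called Junb and Jund lower. Over all genes it called 285 of the 5796 with an adjusted p, 83 lower and 202 higher. The quasi-likelihood test in edgeR called 0. At an unadjusted p below 0.05 in that test, 4 lay lower and 0 higher, beside 7.82% and 8.72% of all genes. With the correction, Fos was at -0.64 and Junb at -0.44, and the median was -0.14.

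The kinases and factors upstream of the early genes, 26 in number, did not lean the same way. Their median log2 fold change was 0.07, and 10 were negative and 16 positive. Without overlap, 3 lay lower and 11 higher, beside 25.8% and 25.9% of all genes. At an unadjusted p below 0.05 there were 1 lower and 3 higher, beside 7.82% and 8.72% of all genes. The 3 higher at that p were Rps6ka5, Creb1 and Mef2a. Rps6ka5, a kinase that phosphorylates CREB and histone H3, had 21.9 and 19.0 CPM against 27.0 and 27.6 CPM. Creb1 had 54.0 and 48.3 CPM against 60.1 and 72.3 CPM, and Mef2a 88.3 and 96.0 CPM against 107 and 111 CPM. With the correction the log2 fold change of Creb1 moved from 0.37 to 0.13 and that of Mef2a from 0.24 to 0.06. Srf overlapped between genotypes, with 70.6 and 70.8 CPM against 74.8 and 67.3 CPM, and its log2 fold change moved from 0.01 to 0.22. The list's corrected median was 0.08. At an unadjusted p below 0.05, 1 then lay lower and 4 higher, beside 3.51% and 7.90% of all genes.

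Binding partners of the members numbered 11, with a median log2 fold change of 0.03. Of these, 8 overlapped between genotypes, and 1 lay lower and 2 higher without overlap, beside 25.8% and 25.9% of all genes. Nab1, a corepressor of EGR factors, had 29.97 and 32.6 CPM in FLOX+GCI and 34.8 and 39.9 CPM in FBN-ARO-KO+GCI. Rxrg, of the retinoid X receptors with which Nr4a1 and Nr4a2 pair, had 7.06 and 6.82 CPM against 5.91 and 5.02 CPM. Arnt, a partner of Npas4, had 27.0 and 27.7 CPM against 29.3 and 30.1 CPM. Arnt2, the more abundant one, overlapped at 372 and 412 CPM against 382 and 409 CPM. At an unadjusted p below 0.05, 0 partners lay lower and 1 higher, beside 7.82% and 8.72% of all genes. With the correction the list's median was 0.07. At that p, 0 then lay lower and 4 higher, beside 3.51% and 7.90% of all genes.

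The list called late effectors, 14 activity-regulated genes taken as induced after or beside the early factors, was centered on a log2 fold change of -0.06 (median). Without overlap, 3 lay lower and 3 higher, 3 of 14 each way, beside 25.8% and 25.9% of all genes. The median turned to 0.10 without FLOX+GCI replicate 2 and was -0.21 without FLOX+GCI replicate 1. Homer1, a scaffold of the postsynaptic density, had 91.1 and 91.9 CPM in FLOX+GCI and 118 and 145 CPM in FBN-ARO-KO+GCI. Vgf, which encodes a secreted neuropeptide precursor, had 148 and 136 CPM against 107 and 94.5 CPM. Their log2 fold changes of 0.52 and -0.49 became 0.22 and -0.16 with the correction. Bdnf, the neurotrophin whose gene Npas4 is known to bind, overlapped between genotypes at 55.4 and 68.1 CPM against 59.0 and 61.5 CPM. DESeq2 called Homer1, Vgf and Syt4 of this list, beside 1.96% of all genes. With the quasi-likelihood test and no replicate block, no gene of these lists passed an adjusted p of 0.05.

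**Figure D5:**
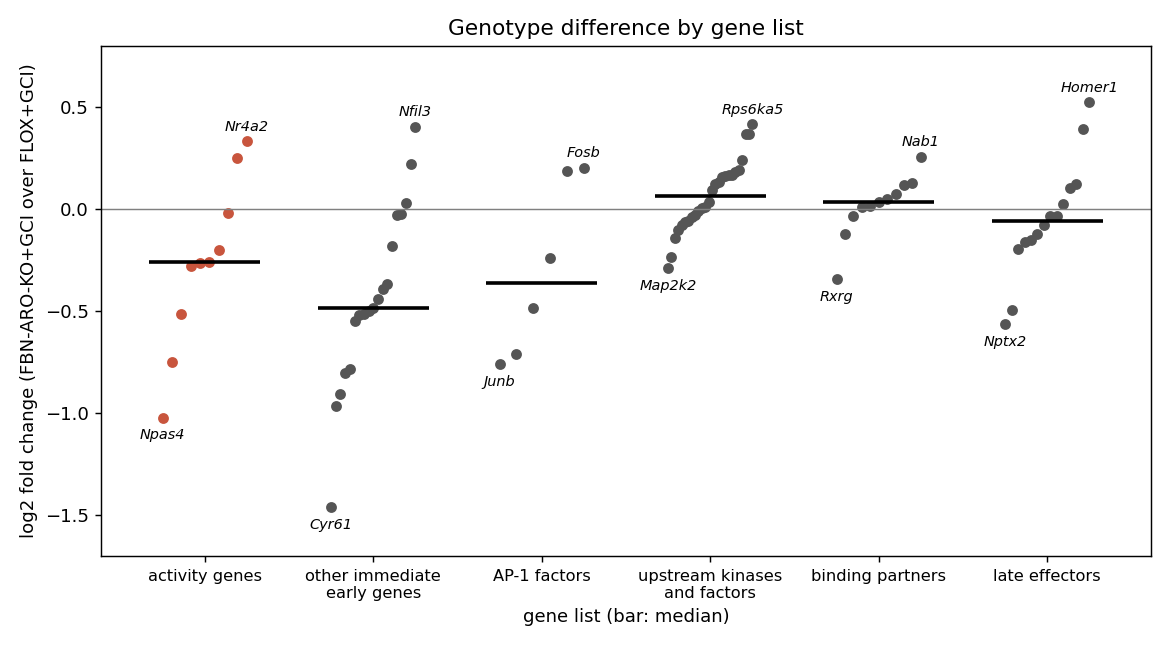
Log2 fold change of FBN-ARO-KO+GCI over FLOX+GCI (y axis) for each tested gene of 6 lists (x axis), with a bar at the median and the lowest and highest gene of each list named. The medians are -0.26 for the activity genes, -0.48 for other immediate early genes, -0.36 for AP-1 factors, 0.07 for upstream kinases and factors, 0.03 for binding partners and -0.06 for late effectors.

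Marker genes were summed in each library to describe the tissue beside these values. General neuronal markers (6 of 7 in the table) summed to between 12189 and 12377 CPM in FLOX+GCI and between 12453 and 12946 CPM in FBN-ARO-KO+GCI, led by Camk2a. The 4 dentate gyrus markers summed to 320 and 292 CPM in FLOX+GCI and 376 and 368 CPM in FBN-ARO-KO+GCI. Calb1 had 127 and 133 against 190 and 184 CPM. Without overlap, C1ql2 lay lower and Calb1, Dsp and Prox1 higher, beside 25.8% and 25.9% of all genes. The median log2 fold change of the 4 was 0.30, and 0.23 with the correction. The 3 CA1 markers, led by Fibcd1, were between 437 and 469 CPM, the 3 CA3 markers, led by Bok, between 134 and 151 CPM, and the 3 interneuron markers, led by Gad1, between 651 and 689 CPM. Astrocyte markers (6, led by Slc1a2) summed to between 4732 and 5658 CPM, oligodendrocyte markers (4, led by Mbp) to between 3447 and 4064 CPM and microglial markers (5, led by Csf1r) to between 224 and 258 CPM. The neuronal, dentate gyrus and oligodendrocyte sums were higher in both FBN-ARO-KO+GCI libraries, the CA1 and CA3 sums lower, and the others overlapped. Markers within a list differed, since Rbfox3, Slc17a7 and Nrgn lay lower without overlap and Camk2a and Snap25 higher, and Fibcd1 overlapped. Over all genes, 25.8% lay lower and 25.9% higher without overlap. With the correction the log2 fold change was 0.03 for Rbfox3, 0.07 for Slc17a7 and 0.04 for Nrgn. It was then 0.09 for Camk2a and 0.11 for Snap25. Gfap, the astrocyte filament gene that rises in reactive astrocytes, had 396 and 900 CPM in FLOX+GCI and 502 and 560 CPM in FBN-ARO-KO+GCI. Its highest library was thus FLOX+GCI replicate 2, as for Atf3 (1.36 and 3.49 against 1.54 and 0.922 CPM) and Maff (1.36 and 2.76 against 1.60 and 1.30 CPM) of the early genes, whereas 7 members were highest in FLOX+GCI replicate 1.

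The 5 endothelial markers, led by Flt1, had negative log2 fold changes in 5 of 5, with a median of -0.42. They summed to 179 and 124 CPM in FLOX+GCI and 137 and 98.0 CPM in FBN-ARO-KO+GCI. FLOX+GCI replicate 1 was thus highest, as for 7 of the 10 members. The full order of libraries was that of Arc and Nr4a1, but not of Egr1, Egr2, Egr4, Npas4 or Ier2. Cdh5 and Tie1 were the 2 without overlap, both lower, beside 25.8% of all genes. The 3 mural cell markers followed the same order of libraries, at 126 and 77.6 against 98.2 and 56.7 CPM, led by Acta2. Choroid plexus markers (4, led by Kl) summed to 63.3 and 49.4 against 42.4 and 47.9 CPM, a separation due to Ttr (26.5 and 21.9 against 8.93 and 15.6 CPM), while the other 3 overlapped. Of the blood genes, Hbb-b1 and Hba-a1 are listed at 0 in all 4 libraries, but they have near-identical copies and reads with several alignments were not counted, so this sets no limit on their level. Alas2 was at 4.15 and 3.08 against 1.84 and 2.29 CPM. Markers of neighboring regions were at 60.6 to 67.4 CPM for striatum (4, led by Ppp1r1b) and 28.2 to 34.8 CPM for thalamus (3, led by Prkcd). The part of vascular or dentate gyrus content in the values of the activity genes was not tested.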

How the data were processed

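RNA-Seq was performed on hippocampal total RNA with 2 libraries per genotype, grouped by their labels. The authors aligned 50 bp single-end reads to mm9 with TopHat2 2.0.8b and deposited unnormalized HTSeq counts for each gene symbol. The annotation release and strand setting are not given in the sources used here. The 5 counters of unassigned alignments, 43.4% to 45.5% of all, were left out.

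The genotype comparison used edgeR 4.0.16 in R 4.3.3 (quasi-likelihood test), with TMM, filterByExpr (minimum count 10), no block and Benjamini-Hochberg adjustment at 0.05. With 2 against 2, the smallest two-sided p of an exact permutation test is 0.333. Standard errors were approximated from the F statistic. Log2 ratios between libraries added 0.1 CPM in the values over all genes and nothing in those of the members. GC content and length are those of the longest coding transcript in GENCODE M1 (NCBIM37, the same build as mm9). The correction fitted natural splines (5 degrees of freedom) library by library, entered as an offset, and left genes without these values uncorrected. Of the 50-base sequences of Nr4a3, 0.0529% occurred in another gene (Dcdc2a), and 0 of the other members'. Alternatives were DESeq2 1.42.0, RLE factors, library totals, every gene with 1 count, a mean of 50 counts, the likelihood ratio test, a replicate block, the correction, and each library left out. The fits were tested on simulated data.

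The members and lists were chosen with earlier results of these data known. The text names all members, from each other list the genes passing the adjusted threshold without or with a replicate block (at most 5), otherwise the 3 with the smallest p, and the most abundant gene of each marker list. Nfil3, Fbxo33, Srf, Arnt2, Bdnf, Jun, Jund, Fosb, Fosl2, Syt4, Atf3, Maff and the further markers were named after their values were seen. Map2, a neuronal marker, was not in the table.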

Additional observations from a re-analysis of the deposited data

How the results depend on the processing

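Of 14527 genes tested, 2 passed the adjusted threshold in edgeR's quasi-likelihood test, and 294 in the likelihood ratio test. DESeq2 set an adjusted p for 5796 of these genes and called 285 (83 lower and 202 higher), and with every gene of at least 1 count kept, 5 of 17821 passed. When 1 library was left out, between 0 and 193 genes passed, and between 0 and 2 members. The 2 members were Npas4 and Ier2, without FLOX+GCI replicate 2, where the lone FLOX+GCI library is assumed to vary like the FBN-ARO-KO+GCI pair. The likelihood ratio test called 1 member, Npas4. RLE factors, library totals, a mean of 50 counts and the correction for GC content and length called 0 members. The members' median log2 fold change was -0.29 with library totals, -0.05 with the correction and between -0.38 and -0.08 with 1 library left out. Egr1 reversed to 0.066 and Egr3 to 0.060 with the correction. Leaving out 1 library moved Egr1 between -0.22 and 0.22 and Egr2 between -0.69 and 0.36. Beyond the correction, whose construction removes the trend with GC content, the cause of these changes was not tested. Of 125 values of the members with an adjusted p under the alternatives, 114 kept their direction and side of the threshold, 4 passed it in addition (Npas4 in 3 and Ier2 in 1) and 7 reversed. DESeq2 set no adjusted p for the other 5 (Egr2, Egr4, Npas4, Nr4a3 and Ier2).

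Replicate numbers in the labels mark no shared batch or day. Libraries with the same number deviated from their group means with a correlation of 0.13. A fit with a replicate block called 184 genes (142 lower and 42 higher) and 1 member, Npas4, with an adjusted p of 0.0154 (edgeR quasi-likelihood, Benjamini-Hochberg). In the other lists it called Cyr61, Gadd45g, Klf2, Fos, Junb, Vgf and Homer1. When the replicate block and the correction were used together, Egr1 was at 0.080 and Egr3 at 0.064, and 0 members and 3 genes were called.

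Counts were lowest for Egr2, Ier2, Npas4 and Egr4, at 76 to 446 per library, so counting error weighs more there than in the other members. Their FLOX+GCI replicates also differed most among the members. The log2 ratios of replicate 2 to replicate 1 were -1.05, -0.77, -0.75 and -0.60 in that order. The 2 libraries per genotype limit all members.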
